A study of Mus musculus with 4 samples.

Results

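The genes described here encode the machinery of the lysosome: its soluble hydrolases, the activator and carrier proteins that serve them, its membrane proteins, and the vacuolar proton pump that acidifies it. They were taken from mouse peritoneal macrophages cultured with TGFb2, a form of transforming growth factor beta, or with PBS alone. Members were all probe sets with exactly 1 gene symbol that begins Atp6v or Atp6ap or is 1 of 32 listed lysosomal genes, with cathepsins left out. The rule found 65 of the 12422 non-control probe sets, which read 45 of 8251 genes. These were 20 hydrolases (28 probe sets), 3 activator or carrier proteins (5), 7 membrane proteins (10) and 15 pump genes (22). Manba and Arsb, also listed, had no probe set with a single symbol and were not analysed here.

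The macrophages came from female BALB/c mice aged 6 to 8 weeks that had received 2 ml of 3% thioglycolate, an irritant that recruits macrophages, into the peritoneum 4 days earlier. The cells were held overnight in serum-free medium with porcine TGFb2 (5 ng, no volume given) or PBS. Adherent cells, labelled as over 95% positive for the macrophage marker F4/80, gave the RNA for 2 Affymetrix arrays per group. The labels do not say whether replicates were separate cultures or animals, or whether mice were pooled, so a p-value here reflects array-to-array spread that may be purely technical.

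Lysosomal hydrolases cleave sugars, lipids, proteins and phosphate esters that reach the organelle by endocytosis, phagocytosis and autophagy, and they work at acid pH. The acid comes from the vacuolar ATPase, in which a cytosolic V1 sector hydrolyses ATP and drives proton flow through a membrane-embedded V0 sector. V1 can come off V0, which stops the pump. In macrophages this system digests engulfed cells, microbes and lipoproteins, and many of its genes carry a CACGTG element through which the factor TFEB and its relatives act.

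Most of the listed membrane protein genes had higher signals with TGFb2 and most V1 pump genes had lower signals, while V0 genes were mixed. The listed hydrolase genes were more often higher than lower, mainly on TGFb2 replicate 2. A signal is the array software's background-corrected brightness of a probe set, and differences below are TGFb2 minus PBS on the log2(signal + 15) scale, each from limma with its standard error (SE) or 95% interval. Each gene is represented by its brightest tested probe set. The median difference was 0.12 over 19 tested hydrolases, 0.30 over 7 membrane proteins, 0.08 over 6 V0 subunits and -0.34 over 7 V1 subunits, against 0.00 over all 5639 tested genes. Of the 19 hydrolases, 14 had differences above 0, where 2839 of the 5639 genes did. TGFb2 replicate 1 was above the PBS mean in 10 of the 19 and replicate 2 in 15. Outside the listed genes, 6 of 10 further enzymes and 10 of 16 further membrane and channel proteins had differences below 0. Single genes seldom passed the test. Of 56 member probe sets bright enough to be tested, 2 passed an adjusted p of 0.05, 1 higher (Man2b1) and 1 lower (a dimmer probe set of Atp6v1b2). Among all 7453 tested probe sets the share that passed was 1.18%, with 0.818% higher and 0.362% lower. At an unadjusted p of 0.05, 8 of the 56 member probe sets were higher and 4 lower, where 5.77% and 5.86% of all tested probe sets were. Counted by gene, with the brightest probe set, 1 of 44 members passed, where 1.19% of all tested genes did. The TGFb2 signals lay wholly above the PBS signals in 21.1% of all tested probe sets and wholly below in 21.7%. In bulk RNA, fewer cells of a type and less RNA per cell cannot be told apart.

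The 9 member probe sets below the test's brightness limit, a signal of about 24.0, were dimmer second probe sets of Arsa, Gaa, Smpd1, Cd68, Cln3, Atp6v0a1 and Atp6ap1, the dimmest set of Ids, and the sole probe set of Ppt1, a thioesterase that removes fatty acids from proteins. Their signals reached at most 25.3 on any array. Ppt1 had signals of 4.4 and 6.8 with PBS and 14.6 and 6.3 with TGFb2, and it was not tested.

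**Figure D1:**
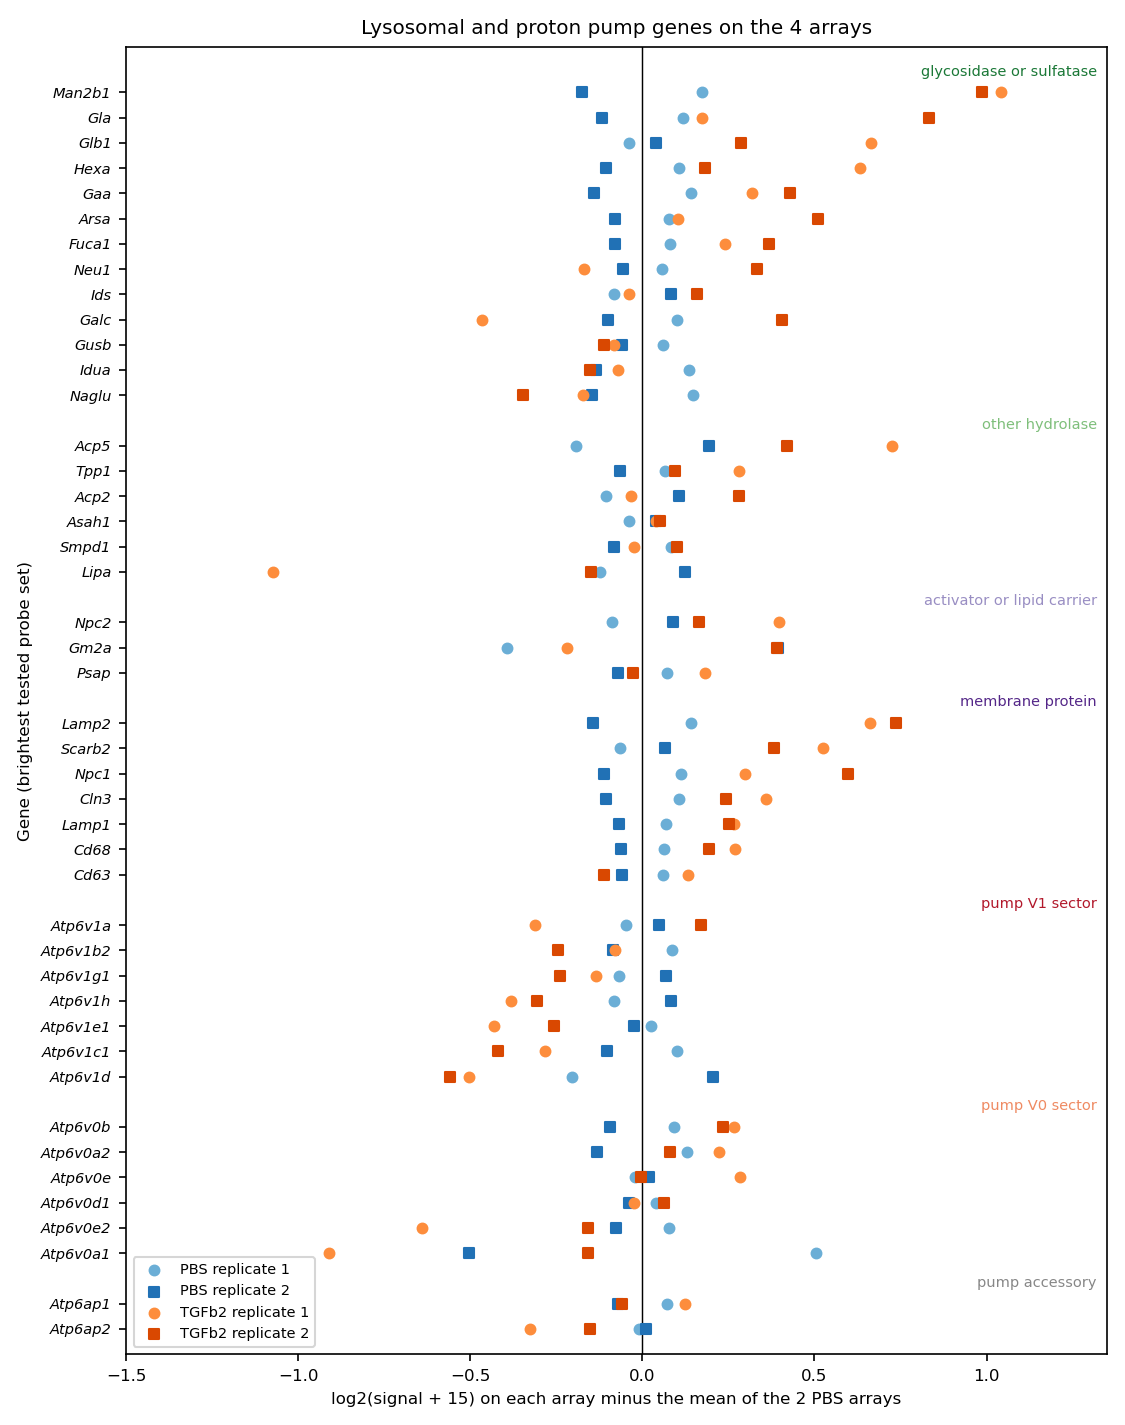
Level of each of the 44 tested genes on each of the 4 arrays, as log2(signal + 15) minus the mean of both PBS arrays (horizontal axis), grouped by role. Blue points are PBS arrays and orange points TGFb2 arrays; the orange points lie to the right for most membrane proteins and to the left for most V1 subunits.

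Promoter windows of the members were examined for the CACGTG element named above. The sequences are those of RefSeq on GRCm38.p6, from 250 bases before to 50 after each annotated start, and 38 of 45 genes matched. Absent were Asah1, Npc1, Atp6v0a2, Atp6v1b2, Atp6v1c1, Atp6v1g1 and Atp6v1h. The palindrome CACGTG, which reads the same on both strands, stood in the windows of 11 of the 38 genes, or 28.9%, against 8.09% of the 27025 genes and 7.15% of the 32851 windows in the table. The 11 were Arsa, Gaa, Gla, Glb1, Naglu, Cln3, Lamp1, Atp6v0b, Atp6v0d1, Atp6v0e and Atp6v1a. Its longer form TCACGTGA, which contains it, stood in 5 of the 38 genes (Gla, Cln3, Atp6v0d1, Atp6v0e and Atp6v1a), against 1.12% of all genes. The palindrome GTCTAGAC, to which SMAD factors of the TGF-beta pathway bind, was in the windows of 0 of the 38 genes and of 0.248% of all genes, which says only that these letters are not in these windows.

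The following 250 bases before the start show the member that passed as higher (Man2b1), the 2 membrane protein genes with the element, a V0 subunit with it, and V1 subunits with it (Atp6v1a) and without it (Atp6v1d). The pair of sectors is not compared by these examples, since 3 of 7 V1 genes had a window, 1 of them with the element, against 3 of the 5 V0 genes that had a window. Each is written 5′ to 3′ along the gene's own strand, with CACGTG in capitals.
Man2b1 (chr8:85083019-85083268, strand +): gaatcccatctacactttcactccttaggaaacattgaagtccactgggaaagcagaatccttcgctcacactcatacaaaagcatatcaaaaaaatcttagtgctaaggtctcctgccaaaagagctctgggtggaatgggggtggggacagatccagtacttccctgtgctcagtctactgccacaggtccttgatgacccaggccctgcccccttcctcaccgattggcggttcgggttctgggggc
Lamp1 (chr8:13158911-13159160, strand +): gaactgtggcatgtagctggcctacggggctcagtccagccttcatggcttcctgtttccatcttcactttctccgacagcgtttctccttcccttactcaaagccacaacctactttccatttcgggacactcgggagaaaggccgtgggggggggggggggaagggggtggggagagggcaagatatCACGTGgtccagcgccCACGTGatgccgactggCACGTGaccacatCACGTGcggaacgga
Cln3 (chr7:126583237-126583486, strand -): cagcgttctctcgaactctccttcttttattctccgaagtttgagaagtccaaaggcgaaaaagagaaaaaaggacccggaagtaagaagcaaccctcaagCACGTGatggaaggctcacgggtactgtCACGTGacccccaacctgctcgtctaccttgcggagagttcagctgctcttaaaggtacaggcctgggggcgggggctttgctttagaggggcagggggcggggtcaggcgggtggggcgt
Atp6v0b (chr4:117887330-117887579, strand -): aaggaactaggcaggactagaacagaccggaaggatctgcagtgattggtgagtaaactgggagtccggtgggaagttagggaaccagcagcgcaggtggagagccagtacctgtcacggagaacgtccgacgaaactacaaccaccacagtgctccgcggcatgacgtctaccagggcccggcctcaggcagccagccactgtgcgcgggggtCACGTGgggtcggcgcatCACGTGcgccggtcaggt
Atp6v1a (chr16:44139260-44139509, strand -): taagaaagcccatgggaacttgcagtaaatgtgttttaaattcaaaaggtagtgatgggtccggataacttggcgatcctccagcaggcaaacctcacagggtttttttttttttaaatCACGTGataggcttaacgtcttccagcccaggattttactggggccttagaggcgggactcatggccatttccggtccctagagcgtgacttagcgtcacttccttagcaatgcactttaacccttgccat
Atp6v1d (chr12:78861639-78861888, strand -): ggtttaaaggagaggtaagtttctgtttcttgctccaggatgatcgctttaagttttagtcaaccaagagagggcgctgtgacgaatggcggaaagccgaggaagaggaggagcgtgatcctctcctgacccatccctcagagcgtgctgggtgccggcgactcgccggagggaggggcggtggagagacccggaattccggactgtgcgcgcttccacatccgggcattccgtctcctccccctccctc
The first base of the element lay 61, 45, 28 and 15 bases before the start in Lamp1, 149 and 121 in Cln3, 36 and 18 in Atp6v0b, and 131 in Atp6v1a. The windows of Man2b1 and Atp6v1d held no CACGTG. Cln3 had another annotated start, not shown, whose window held none either. The 11 genes with the element had a median log2 difference of 0.26 (range -0.26 to 0.50, 9 above 0) and the 26 tested genes without it 0.07 (range -0.61 to 1.01, 17 above 0). Only 1 of the 11 was a V1 gene, and Atp6v1b2, Atp6v1c1, Atp6v1g1 and Atp6v1h were in neither set. Element and role therefore cannot be told apart here, and the difference between the sets was not tested. These are letter matches in a fixed window and not measured sites.

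Glycosidases and sulfatases, which strip sugars and sulfate groups from glycoproteins, glycolipids and glycosaminoglycans, gave 9 differences above 0 and 4 below among 13 tested genes. Of these 13, 1 rose, 0 fell and 12 did not pass, where 0.869% of all tested genes rose and 0.319% fell. The TGFb2 signals lay wholly above the PBS signals for 7 and wholly below for 2, shares of 53.8% and 15.4%, where 22.2% and 21.7% of all tested genes did so. The median difference was 0.30.

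Man2b1, the lysosomal alpha-mannosidase that trims mannose from glycoproteins, had PBS signals of 1947 and 1526 against TGFb2 signals of 3564 and 3433. Both TGFb2 arrays were far above both PBS arrays, and the means of 1736 ± 298 and 3498 ± 92.4 (SD, n = 2 arrays, as throughout) differ 2.01-fold. The log2 difference was 1.01 with an SE of 0.15 (limma, adjusted p = 0.0302). The call was lost without PBS replicate 2 (adjusted p = 0.0962), TGFb2 replicate 1 (0.137) or TGFb2 replicate 2 (0.0895), and it held without PBS replicate 1 (0.0190). The dimmer probe set of Man2b1 had signals of 64.5 and 45.2 with PBS and 80.6 and 44.5 with TGFb2, which overlap, and an interval of -0.55 to 0.79.

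Gla, the alpha-galactosidase that cleaves globotriaosylceramide, had signals of 78.1 and 64.0 with PBS and 81.7 and 138 with TGFb2. TGFb2 replicate 1 was barely above the PBS arrays and replicate 2 well above, and the log2 difference was 0.50 ± 0.26 (SE, limma adjusted p = 0.51). Hexa, the alpha chain of beta-hexosaminidase, which degrades GM2 ganglioside, had signals of 3847 and 3318 with PBS and 5547 and 4059 with TGFb2. Both TGFb2 arrays were above both PBS arrays, and the log2 difference was 0.41 ± 0.16 (adjusted p = 0.39), whereas its dimmer probe set gave -0.07 with overlapping signals. Glb1, the acid beta-galactosidase, had signals of 305 and 322 with PBS and 505 and 385 with TGFb2, a log2 difference of 0.47 (interval 0.05 to 0.90, adjusted p = 0.38). Its dimmer probe set overlapped between groups, with a difference of 0.16.

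Gaa, the acid alpha-glucosidase that degrades glycogen, had signals of 599 and 489 with PBS and 679.5 and 734 with TGFb2, without overlap. Arsa, the sulfatase that acts on sulfatide, and the fucosidase Fuca1 had log2 differences of 0.31 and 0.30, also without overlap. None of Gaa, Arsa and Fuca1 passed in limma (adjusted p = 0.44, 0.62 and 0.51).

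The glycosidase genes with differences below 0 were few and small. Naglu, which removes N-acetylglucosamine from heparan sulfate, had signals of 1014 and 826 with PBS and 810.2 and 716 with TGFb2. The groups just missed each other, and the log2 difference was -0.26 ± 0.16 (SE, limma adjusted p = 0.61). Idua, the iduronidase of the same pathway, had signals of 159.7 and 129.8 with PBS and 136 and 128 with TGFb2, which overlap, with a difference of -0.11 (interval -0.54 to 0.32). Gusb, the beta-glucuronidase, differed by -0.10 (interval -0.37 to 0.17). Galc, Ids and Neu1, which act on galactosylceramide, iduronate sulfate and sialic acid, overlapped between groups, with differences of -0.03, 0.06 and 0.08. The TGFb2 arrays of Galc lay on either side of PBS, at 139 and 268 against 214 and 184.

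The other hydrolases, which act on lipids, phosphate esters and peptides, gave 5 differences above 0 and 1 below, and 0 of 6 tested passed in limma, with 1 higher at an unadjusted p of 0.05, where 6.05% of all tested genes were. Acp5, the tartrate-resistant acid phosphatase of macrophages and osteoclasts, had signals of 352 and 464 with PBS and 678 and 545 with TGFb2. The groups did not overlap, and the log2 difference was 0.57 ± 0.20 (SE, limma adjusted p = 0.30). Lipa, the acid lipase that releases cholesterol and fatty acids from lipoprotein lipids, went the other way. Its signals were 3645 and 4333 with PBS and 1881 and 3584 with TGFb2. TGFb2 replicate 1 was far below the rest while replicate 2 lay just under the PBS arrays. The log2 difference was -0.61 ± 0.27 (adjusted p = 0.44), and it was -0.15 without TGFb2 replicate 1 and -1.07 without TGFb2 replicate 2.

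Tpp1, a peptidase that removes tripeptides, had signals of 3301 and 3015 with PBS and 3835 and 3370.0 with TGFb2, without overlap, and a difference of 0.19 (interval -0.10 to 0.47). The acid ceramidase Asah1, the acid sphingomyelinase Smpd1 and the acid phosphatase Acp2 differed by 0.05, 0.04 and 0.12. Their 95% intervals were -0.26 to 0.35, -0.30 to 0.37 and -0.30 to 0.54, so each was narrower than a 2-fold change in either direction. Over all 19 tested hydrolases the median of 0.12 was 0.28 without TGFb2 replicate 1 and 0.04 without TGFb2 replicate 2.

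The activator and carrier proteins present lipids to the hydrolases or pass on their products. Npc2, which binds cholesterol in the lumen, had signals of 3336 and 3769 with PBS and 4675 and 3977 with TGFb2, without overlap, and a log2 difference of 0.28 ± 0.13 (SE, limma adjusted p = 0.46). Gm2a, the activator of GM2 ganglioside breakdown, had signals of 394 and 691 with PBS and 447 and 691 with TGFb2. Its replicates differed more than its groups. Psap, the precursor of the saposins, had 3 tested probe sets, with log2 differences of 0.08, 0.02 and 0.53. The value of 0.08 was below 0 after quantile normalization or cyclic loess, and without TGFb2 replicate 1. Only the last set had no overlap (785 and 438 with PBS, 865 and 849.6 with TGFb2). In this role 0 of 3 genes passed in limma, and 0 did so at an unadjusted p of 0.05.

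All 7 listed lysosomal membrane protein genes had differences above 0. It was 6 of 7 after quantile normalization or cyclic loess, and without PBS replicate 2 or TGFb2 replicate 1. In 6 of the 7 genes, 85.7%, the TGFb2 signals lay wholly above the PBS signals. The share over all tested genes was 22.2%. In limma 0 of 7 passed, with 4 higher at an unadjusted p of 0.05, where 6.05% of all tested genes were. Lamp2, a heavily glycosylated protein of the lysosomal membrane that also takes part in autophagy, had signals of 1932 and 1583 with PBS and 2776 and 2922 with TGFb2. The TGFb2 arrays were well clear of the PBS arrays, and the difference of 0.70 ± 0.14 (SE, adjusted p = 0.067) missed the threshold. The second tested probe set of Lamp2 had signals of 633 and 609.6 with PBS and 616 and 596 with TGFb2, which overlap, and an interval of -0.37 to 0.30. The probe table does not say which transcripts each of them reads.

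Scarb2, also called LIMP-2, the receptor that carries glucocerebrosidase to the lysosome, had signals of 514 and 563 with PBS and 779 and 706 with TGFb2. Both TGFb2 arrays were above both PBS arrays, with a log2 difference of 0.45 ± 0.15 (SE, limma adjusted p = 0.29). Npc1, which takes cholesterol out of the lysosome, had signals of 632 and 539 with PBS and 721 and 891 with TGFb2, a difference of 0.45 ± 0.17 (adjusted p = 0.37). The abundant membrane glycoprotein Lamp1 had signals of 8668 and 7887 with PBS and 9949 and 9851 with TGFb2. Its interval of 0.04 to 0.48 was narrow, and its difference was 0.26 (adjusted p = 0.34).

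Cln3, a membrane protein mutated in juvenile Batten disease, and Cd68, a macrophage relative of the LAMP glycoproteins, differed by 0.30 and 0.23 without overlap (limma adjusted p = 0.52 and 0.43). The tetraspanin Cd63 overlapped between groups, with signals of 4932 and 4535 with PBS and 5182 and 4378 with TGFb2. Its difference of 0.01 had an interval of -0.27 to 0.29. It was below 0 after quantile normalization or cyclic loess, and without PBS replicate 2 or TGFb2 replicate 1. Each of these left 6 of the 7 genes above 0. The group's median of 0.30 was 0.39 without PBS replicate 1 and 0.19 without PBS replicate 2.

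**Figure D2:**
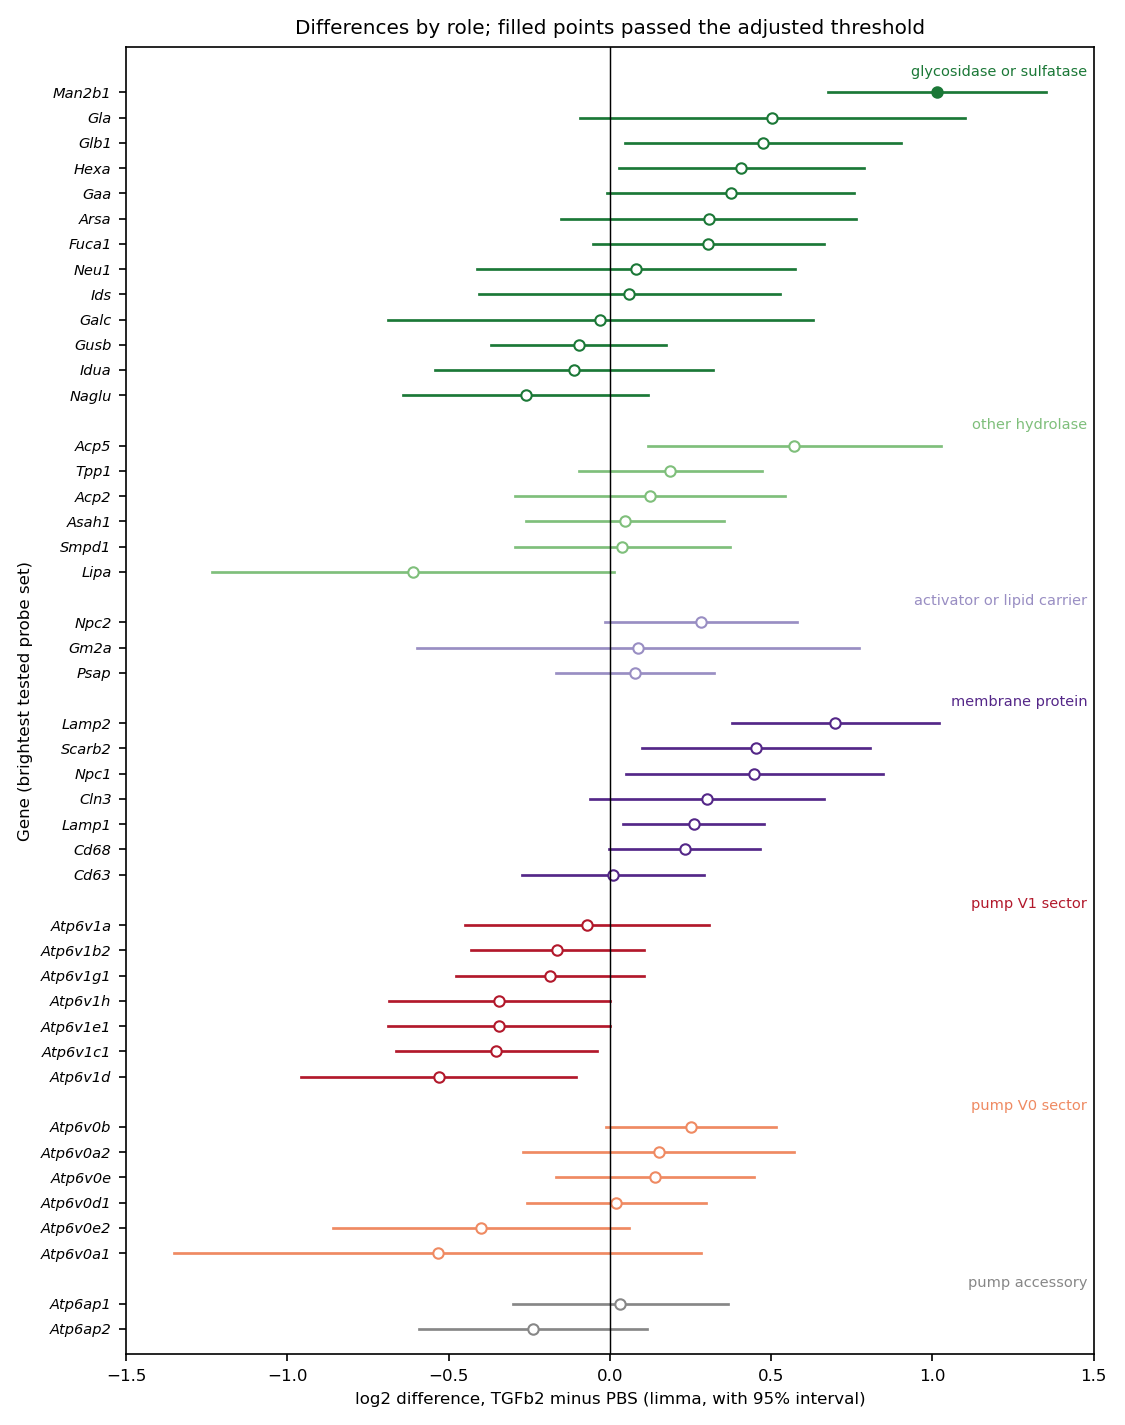
Log2 difference, TGFb2 minus PBS, of the 44 tested genes with its 95% interval from limma (horizontal axis), grouped and coloured by role; a filled point passed the adjusted threshold. Man2b1 alone is filled, the 7 membrane proteins lie at or above 0.01 and the 7 V1 subunits at or below -0.07. Cd63, the lowest membrane protein, is below 0 after quantile normalization or cyclic loess, and without PBS replicate 2 or TGFb2 replicate 1.

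The 15 pump genes had a median log2 difference of -0.19. All 7 V1 genes had differences below 0, from -0.07 to -0.53, and in 5 of them, 71.4%, the TGFb2 signals lay wholly below the PBS signals, where 21.7% of all tested genes did so. By the brightest probe set 0 of 7 passed in limma, with 3 lower at an unadjusted p of 0.05, where 5.98% of all tested genes were. Atp6v1d, a subunit of the central rotor stalk, had signals of 509.7 and 681 with PBS and 411 and 395 with TGFb2. The TGFb2 arrays were close together and below both PBS arrays, and the log2 difference was -0.53 ± 0.18 (SE, adjusted p = 0.30). Atp6v1c1, which joins V1 to the outer part of the stator, had signals of 2402 and 2084 with PBS and 1834 and 1668 with TGFb2, a difference of -0.35 ± 0.13 (adjusted p = 0.37). Its sole probe set carries the _r_at suffix of sets for which some probe selection rules were relaxed.

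Atp6v1e1, a peripheral stalk subunit, had signals of 839.8 and 811 with PBS and 608 and 688 with TGFb2. Atp6v1h, a regulatory subunit, had signals of 821 and 921 with PBS and 664 and 701 with TGFb2. Both genes were lower on each TGFb2 array than on each PBS array, and each differed by -0.34 ± 0.15 (SE, limma adjusted p = 0.43 for both). Atp6v1g1, the partner of E in the peripheral stalk, had signals of 2143 and 2360.4 with PBS and 2049 and 1904 with TGFb2, a difference of -0.19 (interval -0.48 to 0.11).

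The catalytic hexamer of V1 is built of A and B subunits. By the brightest probe set their genes lay closest to 0 among the V1 genes. Atp6v1b2 was barely nearer than Atp6v1g1 (-0.16 against -0.19), and its dimmer probe set, given below, was far lower. Atp6v1a, the ATP-hydrolysing A subunit, had signals of 4154 and 4445 with PBS and 3458 and 4838 with TGFb2. The TGFb2 arrays lay on either side of PBS. The log2 difference was -0.07 (interval -0.45 to 0.31), it was 0.17 without TGFb2 replicate 1, and 2 dimmer probe sets gave -0.02 and 0.06. Atp6v1b2, the B subunit of most tissues, had signals of 5805 and 5147 with PBS and 5174 and 4605 with TGFb2 in its brightest probe set, which overlap, and a difference of -0.16 ± 0.12 (SE, limma adjusted p = 0.66).

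A second, dimmer probe set of Atp6v1b2 fell, from signals of 272 and 218 with PBS to 91.2 and 98.7 with TGFb2. Both TGFb2 arrays were far below both PBS arrays, and the log2 difference was -1.23 ± 0.19 (SE, limma adjusted p = 0.0346). The interval of -1.67 to -0.80 did not meet that of the brightest set, -0.43 to 0.11. The fallen set carries the _s_at suffix of sets that can share probes with related transcripts. The call was lost without any 1 of the arrays, at adjusted p of 0.173 when PBS replicate 1 was left out and 0.0750 for PBS replicate 2, and of 0.133 for TGFb2 replicate 1 and 0.0844 for TGFb2 replicate 2. The difference between the 2 sets was not tested.

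**Figure D3:**
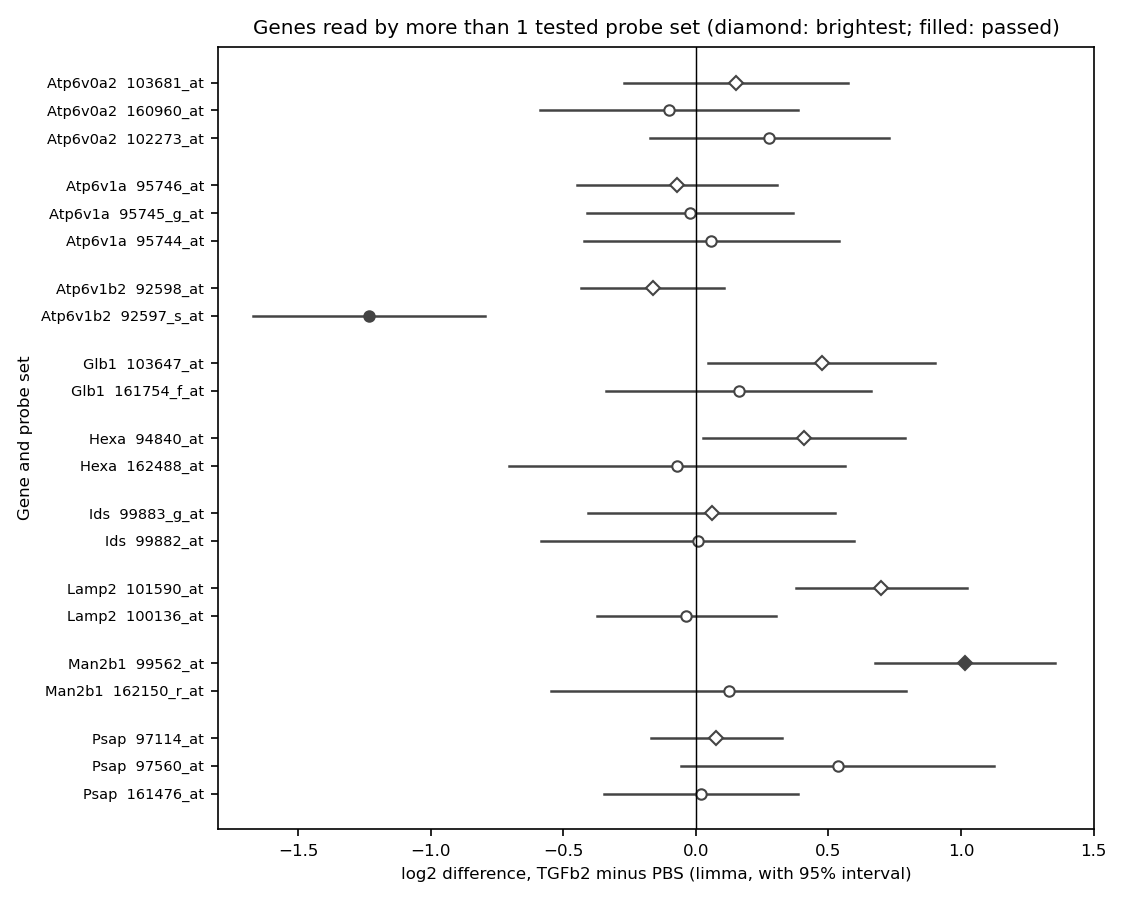
Log2 difference with its 95% limma interval (horizontal axis) for every tested probe set of the 9 genes with more than 1 (vertical axis). Diamonds are the brightest sets and filled symbols passed the threshold; the points of Man2b1, Lamp2 and Atp6v1b2 lie far apart, and those of Ids and Atp6v1a lie together.

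The V0 sector, through which protons cross the membrane, had 4 differences above 0 and 2 below among 6 genes. In limma 0 of the 6 passed, and 0 did so at an unadjusted p of 0.05. Atp6v0b, a subunit of the proton-carrying ring, had signals of 4022 and 3534 with PBS and 4537 and 4439 with TGFb2. Both TGFb2 arrays were above both PBS arrays, and the log2 difference was 0.25 ± 0.11 (SE, adjusted p = 0.46). Atp6v0d1, which links the ring to the V1 stalk, had signals of 2354 and 2232 with PBS and 2256 and 2396 with TGFb2. Its difference of 0.02 had an interval of -0.26 to 0.30. It was below 0 after quantile normalization or cyclic loess, and without PBS replicate 2 or TGFb2 replicate 2. Each of these left 3 of 6 V0 genes above 0.

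By the brightest probe set, paralogs of the small e and the large a subunit lay on opposite sides of 0. Of these genes, only Atp6v0e2 was without overlap between groups. Atp6v0e had signals of 2872 and 2955 with PBS and 3552 and 2904 with TGFb2, which overlap, and a log2 difference of 0.14. Without TGFb2 replicate 1 the difference of Atp6v0e was below 0. The paralog Atp6v0e2 had signals of 645 and 577 with PBS and 386 and 546 with TGFb2, without overlap, and a difference of -0.40 ± 0.20 (SE, limma adjusted p = 0.50). Of the a subunits, which direct the pump to particular membranes, Atp6v0a1 had signals of 1334 and 656 with PBS and 491 and 838 with TGFb2. Its PBS replicates differed more than its groups (means of 995 ± 479 and 665 ± 246, difference -0.53, interval -1.35 to 0.28). Without PBS replicate 1 the difference of Atp6v0a1 was -0.03. Atp6v0a2 had signals of 226 and 186 with PBS and 242 and 217 with TGFb2 in its brightest probe set, and its 3 tested sets differed by 0.15, 0.28 and -0.10. The a3 paralog Tcirg1, the form typical of osteoclast and macrophage lysosomes, is not named Atp6v and so is no member. Its signals were 1733 and 1431 with PBS and 1706 and 2088 with TGFb2, which overlap, with a difference of 0.26 (adjusted p = 0.60). Differences between paralogs were not tested.

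Of the accessory proteins, which help the pump assemble, Atp6ap1 had signals of 1190.3 and 1079 with PBS and 1236 and 1088 with TGFb2, which overlap, and a log2 difference of 0.03. Atp6ap2, the prorenin receptor, had signals of 632 and 642 with PBS and 505 and 572 with TGFb2. The groups did not overlap, and the difference was -0.24 ± 0.15 (SE, limma adjusted p = 0.62).

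Pump and hydrolases were then set against each other on each array, with every gene centred on its mean over the 4 arrays and the median taken over the genes of a group. The pump median minus the hydrolase median was 0.12 and 0.17 with PBS but -0.07 and -0.21 with TGFb2, so the groups did not overlap. The same measure for the V1 sector alone was 0.15 and 0.24 with PBS and -0.17 and -0.28 with TGFb2. Within the pump, V1 minus V0 was 0.05 and 0.28 with PBS and -0.26 and -0.19 with TGFb2. For all tested genes the array medians lay between -0.01 and 0.02. These are descriptions of the lists, and no test was run over their members.

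From the fitted differences, the pump median was -0.19 and the hydrolase median 0.12, so pump minus hydrolases was -0.31. It lay between -0.26 and -0.44 when each array was left out in turn. The pump median by itself was -0.12 without PBS replicate 1 and -0.28 without TGFb2 replicate 2. Of the 13 fits by probe set other than the chosen one, those with another filter, variance model or block cannot alter a tested gene's difference. In the rest, V1 genes were below 0 in 7 of 7, except without TGFb2 replicate 1, where 6 of 7 were. With the mean of a gene's probe sets, a fit not among the 13, the V1 median was -0.34 and directions were not counted.

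**Figure D4:**
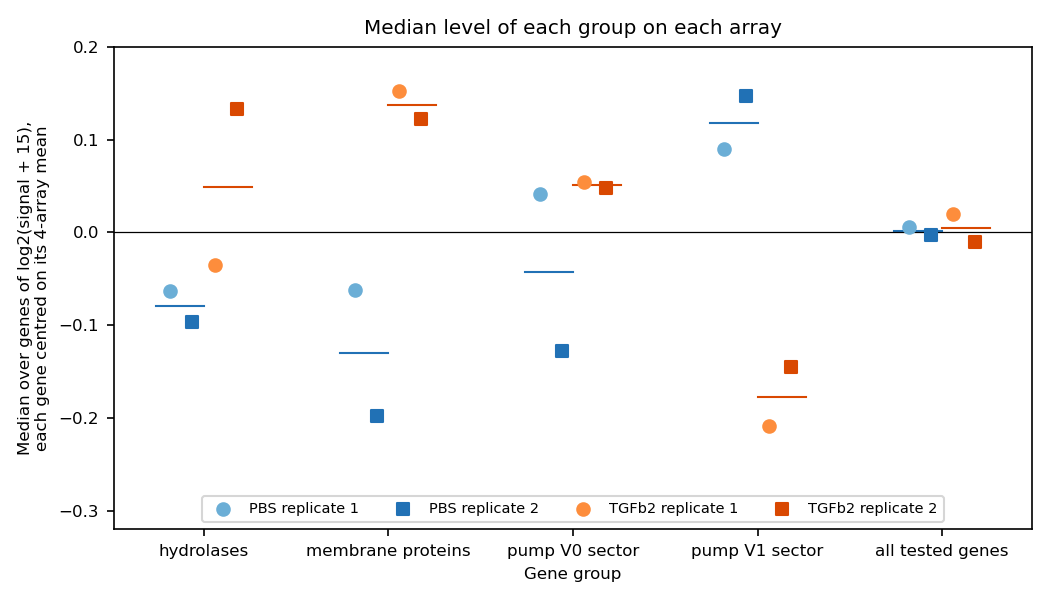
Median over genes of log2(signal + 15), with each gene centred on its mean over the 4 arrays (vertical axis), for each gene group (horizontal axis) and array; short lines are the means of 2 arrays. The V1 points are at 0.09 and 0.15 with PBS and at -0.21 and -0.15 with TGFb2, the membrane protein points are in the opposite order, and all tested genes lie near 0.

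Other genes of the pathway came from a list by role, 61 of which had a probe set and 58 were tested. In limma 0 of the 58 passed, and at an unadjusted p of 0.05, 0 were higher and 7 lower, where 6.05% and 5.98% of all tested genes were. Their median difference was -0.05. Among 10 further enzymes, some of which act outside the lysosome (Acp1, Sgpl1 and Gnptab), the median was -0.10. They had 4 differences above 0 and 6 below, with 0 higher and 3 lower at an unadjusted p of 0.05. The largest difference was in Scpep1, a serine carboxypeptidase, with signals of 518 and 462 with PBS and 301 and 346 with TGFb2, a log2 difference of -0.58 ± 0.17 (SE, adjusted p = 0.20). Among 16 further membrane and channel proteins the median was -0.07. These had 6 differences above 0 and 10 below, with 0 higher and 3 lower at an unadjusted p of 0.05. Mcoln2, a cation channel of endolysosomes, had signals of 176 and 202 with PBS and 108 and 94.1 with TGFb2, without overlap, and a difference of -0.81 ± 0.18 (adjusted p = 0.11).

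Among 22 genes of delivery and sorting the median difference was -0.02. Vps26a, of the retromer that returns sorting receptors from endosomes, had signals of 504 and 622 with PBS and 401 and 422 with TGFb2 (limma adjusted p = 0.38). Among 10 regulators the median was 0.10. Tfeb, the transcription factor that acts through CACGTG, had signals of 122 and 129 with PBS and 58.4 and 109.6 with TGFb2. TGFb2 replicate 1 was far below the PBS arrays and replicate 2 only a little below, and the log2 difference was -0.56 ± 0.27 (SE, adjusted p = 0.48). It was -0.17 without TGFb2 replicate 1.

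The array facts that bear on these values are few. The 4 arrays had equal trimmed mean signals of 150.1, and over the tested probe sets Pearson's r of log2(signal + 15) was 0.979 for the PBS pair and 0.968 for the TGFb2 pair. The labelled cell type was checked on a list of macrophage markers, of which 10 of 11 were tested and 0 passed in limma. Adgre1, which encodes F4/80, had signals of 488 and 779.9 with PBS and 471 and 748 with TGFb2. Adgre1 and Cd14 overlapped between groups. The TGFb2 signals of Csf1r, Itgam, Fcgr1, Mertk, Msr1 and Cd68 lay wholly above the PBS signals, and those of Lyz2 and Mrc1 wholly below. Fcgr1 had signals of 178 and 162 with PBS and 480 and 316 with TGFb2 (limma adjusted p = 0.066). The summed signal of the list was 15948 and 16797 with PBS and 17858 and 18293 with TGFb2. Without Cd68, itself a member, the sums were 9570.1 and 10946 with PBS and 10495 and 11302 with TGFb2, which overlap. Lyz2 alone gave 4932 and 5094 of these with PBS and 4929 and 4462 with TGFb2.

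Of other cell types, neutrophil markers summed to 417 and 474 with PBS and 909.7 and 914 with TGFb2, with S100a8 past the threshold and 6 of 10 below the brightness limit. Without S100a8 the sums were 288.7 and 263 with PBS and 359 and 235 with TGFb2, which overlap. Fibroblast and mesothelial markers summed to 1853 to 2586 with PBS and 1946 to 2293 with TGFb2, with 3 risen and 1 fallen of 12 tested. B cell markers summed to 562 to 604 and 499.9 to 617, and mast cell markers to 473 to 494.5 and 450.5 to 599. T cell markers summed to 47.7 to 90.5 with PBS and 82.9 to 83.2 with TGFb2, with Cd3e, Cd3d and Cd3g below the limit, and eosinophil markers to 8.5 to 10.6 and 15.4 to 28.2, all below it. The part of these other cells in the lysosomal values was not tested.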

How the data were processed

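The values are the deposited probe set intensities, MAS5 signals per the submitters' processing notes, on a linear scale. MAS5 combines perfect-match and mismatch probes into a background-corrected brightness. Its version, detection calls and any filter are unstated in the labels, and precision is limited by the number of arrays. Gene symbols came from the platform annotation. Controls (66 of 12488 probe sets) were left out.

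The test scale was log2(signal + 15), 15 being 10% of the mean trimmed by 2%, on which a dim gene's change is understated. Probe sets with a mean log2 level at or above the 40th percentile were tested, 7453 in all, reading 5639 named genes. The fit was limma 3.58.1 in R 4.3.3 with an intensity trend, all 4 arrays, no block, two-sided, Benjamini-Hochberg adjusted over all tested probe sets, threshold 0.05. It was tested on simulated data.

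Members and gene lists were chosen with earlier results of these data known. Per-array values are given for member genes past the threshold in any probe set, the 2 with the largest difference in each direction of each role, and genes whose probe sets disagree in direction or call; of other lysosome genes, those past the threshold or else the largest difference in each role. Further genes named were added after their values were seen. No batch information is given in the sources used here.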

Additional observations from a re-analysis of the deposited data

How the results depend on the processing

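The medians of the hydrolases, membrane proteins, pump and V1 genes, and pump minus hydrolases, kept their direction in the 11 alternatives run, which changed the pseudocount, the normalization between arrays, the filter, the probe sets per gene or the arrays used. Leaving out 1 array at a time, the hydrolase median ran from 0.040 to 0.28, the membrane protein median from 0.19 to 0.39, the pump median from -0.28 to -0.12 and pump minus hydrolases from -0.44 to -0.26. The pump median was -0.23 with quantile normalization and with cyclic loess and -0.24 with the mean of a gene's probe sets. The changes of filter left the membrane protein, pump and V1 medians as they were. The 2 member calls were 0 without the filter on dim probe sets, 0 without the intensity trend and 0 to 1 without 1 array, and all calls, 88 in the chosen fit, were 57 without a pseudocount, 6 without the filter, 16 without the trend and 11 to 42 without 1 array. The causes were not tested. The labels share replicate numbers but do not say that they pair the arrays. Deviations of same-numbered arrays correlated at 0.15, and with 2 pairs this does not settle pairing. With the replicate block the calls were 320 in all and 4 among member probe sets. These were Man2b1 and the dimmer Atp6v1b2 probe set, with Lamp2 (higher, limma adjusted p = 0.00647) and Lipa (lower, 0.0276) added. By the brightest probe set, 2 of the 58 other lysosome genes passed, Mcoln2 at 0.0263 and Slc11a1 at 0.0365, both lower. A dimmer probe set of Ap1b1 also passed, lower at 0.0347. No other member call changed under the block. No alternatives were run for the glycosidase and V0 medians. Man2b1 passed in 8 of 13 alternatives, with adjusted p from 0.000225 to 0.137, and the dimmer Atp6v1b2 probe set in 7 of 13, from 0.00141 to 0.173.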
